A study of Homo sapiens with 12 samples.

Results

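The 10 genes described here encode actin (ACTB and ACTG1), alpha tubulin (TUBA1A, TUBA1B and TUBA1C), beta tubulin (TUBB, TUBB2A and TUBB4B), the intermediate filament protein vimentin (VIM) and the actin-severing protein cofilin (CFL1). They were picked by gene identity, with no measured value used in the rule but with earlier results of these data known. They are 10 of the 19580 genes in a table of ribosome footprint densities. The cells were HAP1, a human line that is near-haploid and descends from KBM-7 leukaemia cells, with a wild-type genotype in all groups. The 4 groups of 3 biological replicates each were 4SU+UVA (5 uM 4-thiouridine for 18 h, then 6 kJ per square metre of UVA and 30 min of recovery), 4SU (the nucleoside at that dose and time without light), UVA (the light at that dose without the nucleoside, and 30 min of recovery) and untreated. 4-Thiouridine (4SU) is a uridine analogue that is built into new RNA and can bond covalently to nearby protein when it absorbs UVA, so the combined treatment is the one made to crosslink RNA to protein. In ribosome profiling the mRNA stretches that ribosomes shield from RNase are sequenced, and every group was lysed in cycloheximide, which holds ribosomes in place.

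Actin monomers assemble into filaments that shape the cell cortex and carry its contractile forces, and cofilin severs and disassembles those filaments. Alpha and beta tubulin pair into the dimer from which microtubules are built. Cells hold tubulin in balance partly through its own mRNAs, because an excess of free dimer triggers decay of tubulin mRNAs while ribosomes translate them. Vimentin forms the intermediate filament network of mesenchymal and many cultured cells. ACTB and ACTG1 are known targets of serum response factor, which binds the CArG box.

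The libraries held 1899854 to 5832366 reads each, and 4SU+UVA replicate 2 was the smallest. Every one of the 10 genes passed the filter of at least 1 RPKM (reads scaled by transcript length in kilobases and by the library's read total) in at least 3 libraries, as did 11510 genes in all. A gene of this group held between 177 reads (in the smallest library) and 32118 reads per library, and the coefficient of variation among the 3 replicates of a group ran from 0.89% to 10.7%. Only footprints were used, so mRNA amount and ribosome load per mRNA cannot be told apart, nor can fewer cells and less RNA per cell. The irradiated groups alone had 30 min of recovery, and a mock treatment of the other groups is not stated. Light and the recovery after it therefore cannot be told apart in any comparison of light. Actin and tubulin paralogues share long near-identical stretches and the treatment of reads that fit several genes is not stated, so the split of reads between paralogues is uncertain. The label HAP1 could not be checked against cell type markers, since the table pairs its identifiers with no symbols.

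Positions are those of the RefSeq annotation of GRCh38.p14, and identifiers are those of the deposited table. ACTB (ENSG00000075624.17) lies at chr7:5527148-5530601, ACTG1 (ENSG00000184009.13) at chr17:81509971-81512799, VIM (ENSG00000026025.16) at chr10:17228241-17237593 and CFL1 (ENSG00000172757.13) at chr11:65854673-65858180. The alpha tubulin genes are neighbours on chromosome 12, with TUBA1B (ENSG00000123416.15) at chr12:49127782-49131395, TUBA1A (ENSG00000167552.15) at chr12:49184795-49189080 and TUBA1C (ENSG00000167553.17) at chr12:49227926-49274600. TUBB (ENSG00000196230.14) lies at chr6:30720352-30725422, TUBB2A (ENSG00000137267.7) at chr6:3153666-3157544 and TUBB4B (ENSG00000188229.6) at chr9:137241287-137243707. The transcripts by which the table scaled these genes were 1245 nt (CFL1) to 2823 nt (TUBA1C) long.

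By footprint density, the group spans abundant and modest genes. Density is scaled by the transcript length used in the deposited values, so the order of genes depends on that length as well as on reads. In untreated replicates 1, 2 and 3, ACTG1 held 19206, 26914 and 30106 reads and ACTB 18556, 26088 and 29617. Ranked by mean RPKM over the 12 libraries, ACTB stood at place 24 and ACTG1 at place 32 of the 19580, TUBA1A at place 1265 and TUBB2A at place 2112, with the other 6 between places 69 and 316. In untreated cells the order was ACTB (2948 ± 54.7 RPKM), ACTG1, TUBB, VIM, TUBB4B, CFL1, TUBA1B, TUBA1C, TUBA1A and TUBB2A (41.9 ± 2.57 RPKM; SD, n = 3). Only the ranges of the neighbours TUBB4B and CFL1 overlapped there. With UVA the order was the same and no neighbours overlapped. With 4SU, TUBB and VIM overlapped, VIM and CFL1 overlapped, and CFL1 stood at place 5. With 4SU+UVA, CFL1 stood at place 3, above every tubulin library and VIM, while the ranges of TUBB and VIM, of VIM and TUBA1B, and of TUBA1B and TUBB4B overlapped. The 10 genes together took 1.90 ± 0.0992% of reads with 4SU+UVA, 1.90 ± 0.0514% with 4SU, 1.95 ± 0.0685% with UVA and 1.97 ± 0.0303% in untreated cells (SD, n = 3 each). The groups overlapped in this total.

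**Figure D1:**
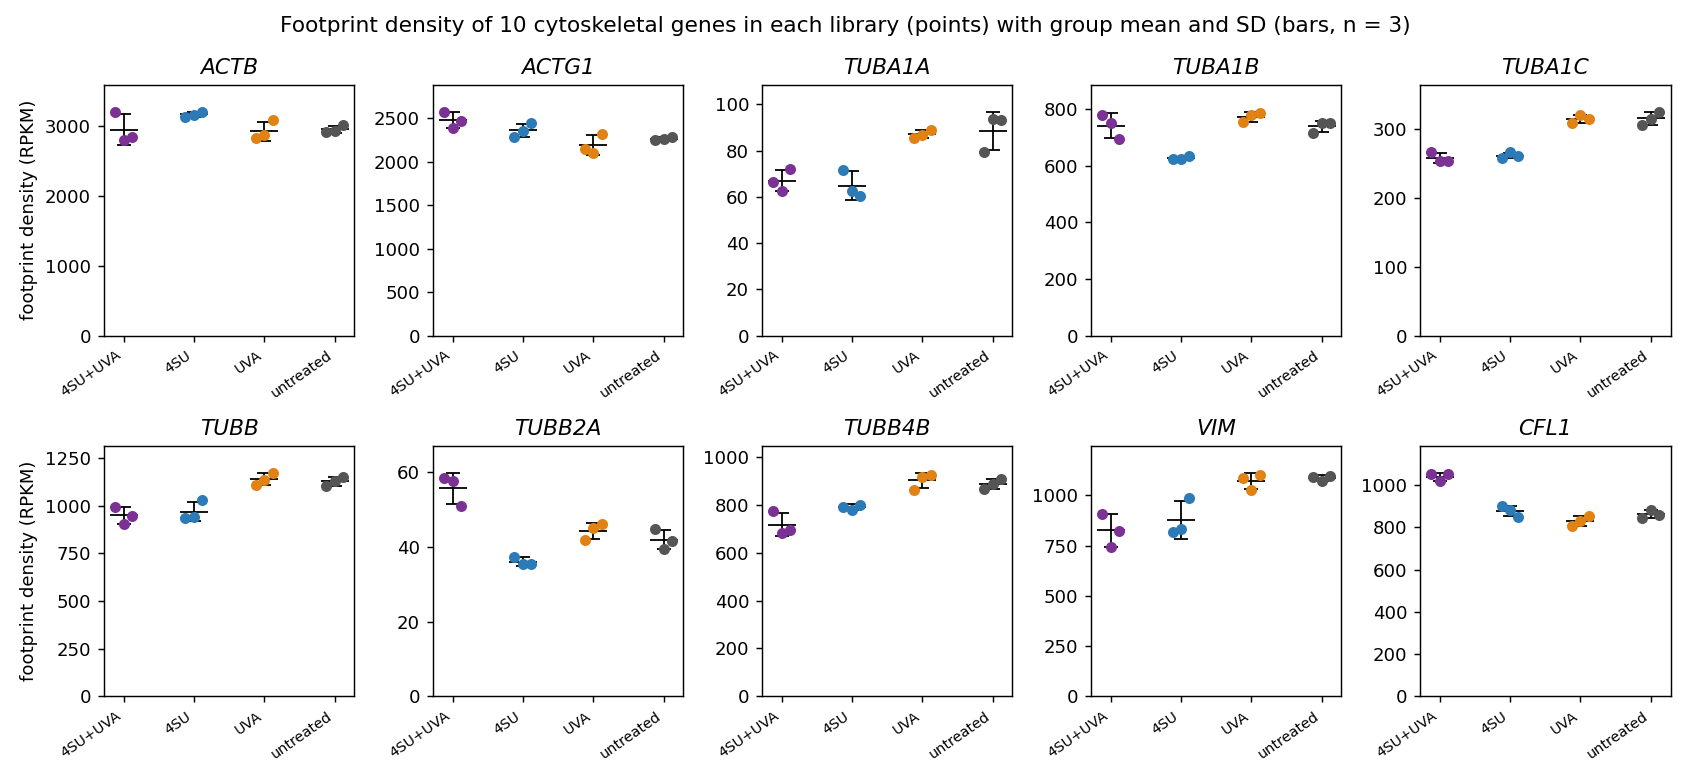
Footprint density (RPKM, linear axes from 0) of each gene in each library. Points are libraries, horizontal bars the group mean and SD (n = 3), with 4SU+UVA, 4SU, UVA and untreated from left to right. TUBA1A, TUBA1C, TUBB, TUBB4B and VIM are lower in both groups with 4SU, TUBA1B is lower in the 4SU group alone, and TUBB2A and CFL1 are highest with 4SU+UVA.

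The combined treatment, which the series design describes as a way to induce crosslinks, was set against untreated cells. Among the 10 genes, 3 rose (TUBB2A, CFL1 and ACTG1) and 5 fell (TUBA1A, VIM, TUBB4B, TUBA1C and TUBB), while ACTB and TUBA1B did not pass (limma, adjusted p under 0.05). That is 8 of 10 genes, where 59% of all 11510 tested genes passed, 40.6% higher and 18.4% lower. In the same 8 genes no library of one group reached the range of the other, which held for 63.7% of all tested genes. The median log2 change of the 10 was -0.13, and that of all tested genes was 0.23. The rising 3 genes have transcripts of 1245 nt (CFL1), 1616 nt (TUBB2A) and 2256 nt (ACTG1), and the falling 5 have 1563 nt (TUBB4B) to 2823 nt (TUBA1C), and the part of length in these changes was not tested. Under median centring and under quantile normalisation the count was 1 higher (TUBB2A) and 7 lower. The median gene moves to 0.06 when each library is centred on its median and to 0.04 with quantile normalisation, and relative to the median gene under the deposited scaling TUBB2A lay at 0.17, CFL1 at 0.04 and ACTG1 at -0.11.

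What the nucleoside does without light was read from 4SU against untreated cells. Here 6 of the 10 genes fell and 0 rose (limma), against 14.4% of all tested genes called, 3.12% lower and 11.3% higher. The 6 were TUBA1A, VIM, TUBA1C, TUBA1B, TUBB and TUBB4B, that is 5 of the 6 tubulin genes and vimentin. At an unadjusted p under 0.05 the number was 7, which adds TUBB2A on the lower side and still holds 0 rises, and 3430 of the 11510 genes reached that level. The libraries of both groups did not overlap for 9 of the 10 genes, all but CFL1, as for 35.3% of all tested genes. The median log2 change was -0.22, beside 0.09 over all tested genes, and the 6 falls lay between percentile 1.998 and percentile 14.1 of all tested genes. Single libraries mattered: 3 falls (TUBA1A, TUBA1B and TUBA1C) passed without 4SU replicate 1, without 4SU replicate 2 or without untreated replicate 3, and 3 also without the variance trend.

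UVA alone left the 10 genes close to their untreated level. With limma 0 of 10 passed, also at an unadjusted p under 0.05, where 0.652% of all tested genes were called at adjusted p under 0.05 (0.278% higher and 0.374% lower) and 970 reached an unadjusted p under 0.05. The log2 changes lay between -0.06 (CFL1) and 0.08 (TUBB2A). Their 95% intervals bound the change of each gene, from -0.15 to 0.04 for CFL1 at the narrowest and from -0.20 to 0.16 for TUBA1A at the widest. TUBA1B was the only one with no overlap between the groups, at 753, 779 and 788 RPKM with UVA and 717, 752 and 751 RPKM in untreated cells, which 16.8% of all tested genes also showed. Quantile normalisation gave 1 call, ACTB (log2 0.31, limma adjusted p = 0.00296, against -0.01 with the deposited scaling).

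**Figure D2:**
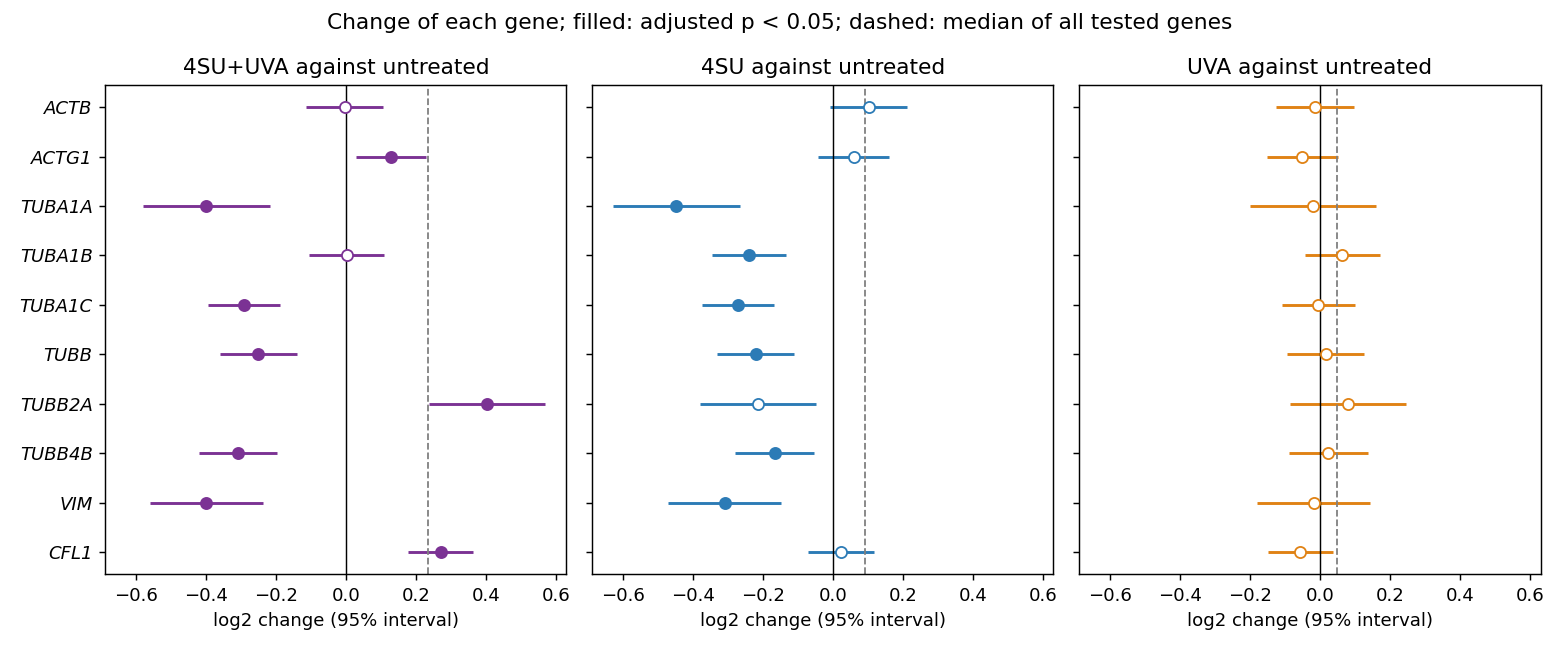
Log2 change of footprint density of each gene with its 95% interval, for 4SU+UVA, 4SU and UVA, each against untreated cells, which the comparisons share. Filled points passed at adjusted p under 0.05 (8, 6 and 0 genes), and the dashed line is the median of all tested genes (0.23, 0.09 and 0.05).

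The actin genes changed little with the deposited scaling. ACTB, which encodes the beta isoform of cytoplasmic actin, had 3196, 2793 and 2844 RPKM with 4SU+UVA, 3130.1, 3157 and 3201 RPKM with 4SU, 2824, 2864 and 3077 RPKM with UVA, and 2906, 2929.7 and 3010.1 RPKM in untreated cells. The 4SU libraries lay above all untreated ones by a small margin, while replicate 1 of 4SU+UVA stood well above the other 2 of its group. ACTB passed in none of the comparisons, with a log2 change of -0.0043 for 4SU+UVA (SE 0.05, limma adjusted p = 0.949) and 0.10 for 4SU (SE 0.05, limma adjusted p = 0.208), both against untreated cells. Against 4SU alone its change with 4SU+UVA was -0.11 (limma adjusted p = 0.114), which passed at -0.17 (adjusted p = 0.00724) when 4SU+UVA replicate 1 was left out. Median centring made the change of 4SU+UVA against untreated a call, at -0.18 (limma adjusted p = 0.023), and quantile normalisation gave calls at -0.39 against untreated (limma adjusted p = 4.25e-06) and -0.41 against 4SU (limma adjusted p = 4.79e-06).

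ACTG1, which encodes the gamma isoform of cytoplasmic actin, was highest with 4SU+UVA. It had 2576, 2391 and 2467 RPKM there, 2290.1, 2350.2 and 2443 RPKM with 4SU, 2152, 2101 and 2318 RPKM with UVA, and 2249, 2260.1 and 2288 RPKM in untreated cells. All 3 4SU+UVA libraries lay above all untreated and all UVA libraries and overlapped those with 4SU. The rise was small, with a log2 change of 0.13 against untreated cells (SE 0.05, limma adjusted p = 0.0293) and 0.18 against UVA (SE 0.05, limma adjusted p = 0.00536). The first failed in 5 of 6 fits that left out a library (limma adjusted p = 0.0569 to 0.087), without the filter on low values (0.0768) and without the variance trend (0.133), and it turned to -0.042 with median centring and -0.14 with quantile normalisation. The second failed with median centring (log2 0.09, limma adjusted p = 0.196) and turned to -0.34 with quantile normalisation.

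The balance of the actin isoforms was lowest with 4SU+UVA. ACTB over ACTG1 within a library, a ratio that the library total cannot change, was 1.24, 1.17 and 1.15 with 4SU+UVA, 1.37, 1.34 and 1.31 with 4SU alone, 1.31, 1.36 and 1.33 with UVA alone, and 1.29, 1.30 and 1.32 in untreated cells. The 4SU+UVA libraries lay below all other libraries. The level of this ratio rests on the transcript lengths used, 1687 nt for ACTB and 2256 nt for ACTG1, which are the same in every library. Against untreated cells the difference was -0.13 on the log2 scale (SE 0.03, exact permutation test, p = 0.1, the smallest that 3 against 3 libraries allow), and against 4SU it was -0.18 (SE 0.04, exact permutation p = 0.1).

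The promoter of ACTG1 is shown because it holds the CArG box named above. The 120 bases before its RefSeq start (GRCh38.p14, minus strand, chr17:81512800-81512919) read 5′ to 3′ as follows, with the CArG box, whose first base is at -94 from the start, in capitals.
ACTG1: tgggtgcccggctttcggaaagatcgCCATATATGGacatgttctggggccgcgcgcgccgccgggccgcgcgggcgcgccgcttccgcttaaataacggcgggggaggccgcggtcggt
Promoter windows were at hand for 9 of the 10 genes, all but ACTB, which was therefore not searched. In each window the 250 bases before the start were searched on both strands. A CArG box occurred in 1.16% of 35116 such windows and, among the 9 genes, in ACTG1 alone. A match is a description of the letters and was not tested as a binding site.

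All 3 alpha tubulin genes fell with 4SU alone, and TUBA1A and TUBA1C also with 4SU+UVA. TUBA1C, a broadly expressed isotype, had 266, 253 and 253 RPKM with 4SU+UVA, 258, 266 and 259.8 RPKM with 4SU, 308, 320.1 and 314 RPKM with UVA, and 306, 314 and 325 RPKM in untreated cells. Every library with 4SU lay below every library without it. The log2 change was -0.29 for 4SU+UVA (SE 0.05, limma adjusted p = 0.000145) and -0.27 for 4SU (SE 0.05, limma adjusted p = 0.00332), both against untreated cells. 4SU+UVA against 4SU gave -0.02 (limma adjusted p = 0.757), with a 95% interval of -0.12 to 0.08.

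TUBA1A, the isotype best known from developing neurons, was the scarcest of the alpha tubulins read here and behaved likewise. It had 66.4, 62.6 and 71.9 RPKM with 4SU+UVA, 71.8, 62.5 and 60.3 RPKM with 4SU, 85.5, 86.9 and 88.9 RPKM with UVA, and 79.2, 93.6 and 93.0 RPKM in untreated cells. No library with 4SU reached the lowest library without it. Its log2 change was -0.40 for 4SU+UVA (SE 0.08, limma adjusted p = 0.00103) and -0.45 for 4SU (SE 0.08, limma adjusted p = 0.00421), both against untreated cells.

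TUBA1B, the most abundant of the alpha tubulins read here, was low in the 4SU group alone. It had 780.2, 750.2 and 694 RPKM with 4SU+UVA, 622, 624 and 633 RPKM with 4SU, 753, 779 and 788 RPKM with UVA, and 717, 752 and 751 RPKM in untreated cells. The 4SU libraries sat together below all others, and the 4SU+UVA libraries overlapped the untreated ones. The log2 change was -0.24 for 4SU against untreated (SE 0.05, limma adjusted p = 0.00674), 0.24 for 4SU+UVA against 4SU (SE 0.05, limma adjusted p = 0.00131) and 0.0014 for 4SU+UVA against untreated (SE 0.05, limma adjusted p = 0.984). The last became a fall of -0.17 with median centring (limma adjusted p = 0.0205), and quantile normalisation took the rise over 4SU to 0.07 (limma adjusted p = 0.149).

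TUBB, the most abundant of the beta tubulins read here, followed the pattern of TUBA1C. It had 995, 903 and 946 RPKM with 4SU+UVA, 936, 939.9 and 1027 RPKM with 4SU, 1109, 1136 and 1173 RPKM with UVA, and 1102, 1129 and 1149.6 RPKM in untreated cells. Again all 6 libraries with 4SU lay below all 6 without it. TUBB changed by log2 -0.25 for 4SU+UVA (SE 0.05, limma adjusted p = 0.000796) and -0.22 for 4SU (SE 0.05, limma adjusted p = 0.0118). The call for 4SU failed without 4SU replicate 1, 4SU replicate 2 or untreated replicate 3 (limma adjusted p = 0.0537 to 0.0566).

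TUBB4B, another broadly expressed beta tubulin, fell further with the combined treatment. It had 774, 684 and 693 RPKM with 4SU+UVA, 791, 777 and 801 RPKM with 4SU, 864, 916 and 926 RPKM with UVA, and 866, 887 and 908 RPKM in untreated cells. The 4SU libraries lay between the 4SU+UVA libraries below and the untreated libraries above, with no overlap on either side. The log2 change was -0.31 for 4SU+UVA (SE 0.05, limma adjusted p = 0.000183) and -0.17 for 4SU (SE 0.05, limma adjusted p = 0.0468), both against untreated cells, and -0.14 for 4SU+UVA against 4SU (SE 0.05, limma adjusted p = 0.0409). The call for 4SU failed in each of the 6 fits that left out a library, and that against 4SU failed in 5 of 6, all but the fit without 4SU+UVA replicate 1, and neither passed without the filter on low values or without the variance trend.

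TUBB2A, a beta tubulin best known from neurons, was the only tubulin gene here called higher with 4SU+UVA than in untreated cells. That rise lay at percentile 63.0 of all tested genes. Like TUBA1B, TUBB2A was lowest with 4SU alone. It had 58.4, 57.7 and 50.8 RPKM with 4SU+UVA, 37.4, 35.3 and 35.4 RPKM with 4SU, 41.8, 44.9 and 46.0 RPKM with UVA, and 44.6, 39.5 and 41.6 RPKM in untreated cells. The 4SU+UVA libraries lay above all others and the 4SU libraries below all others. TUBB2A changed by log2 0.40 for 4SU+UVA against untreated (SE 0.08, limma adjusted p = 0.000485) and 0.62 for 4SU+UVA against 4SU (SE 0.08, limma adjusted p = 2.05e-05). It was -0.21 for 4SU against untreated (SE 0.08, limma adjusted p = 0.0781), which passed at -0.34 with median centring (limma adjusted p = 0.012) and at -0.26 with quantile normalisation (limma adjusted p = 0.0414). The gene rests on few reads, 949 in the 4SU+UVA and 753 in the 4SU libraries, a ratio of 1.56 per library read with an exact 95% interval of 1.42 to 1.72 that covers counting error only.

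The promoters of TUBB2A and TUBB4B are set side by side because these beta tubulin genes moved in opposite directions with 4SU+UVA. With 4SU alone both lay below untreated cells (log2 -0.21 and -0.17, the first without a call). The part of the promoters in these changes was not tested. Each run is the 120 bases before the RefSeq start in GRCh38.p14, 5′ to 3′, TUBB2A from the minus strand (chr6:3157545-3157664) and TUBB4B from the plus strand (chr9:137241167-137241286). Capitals mark TATAAA and TGACGTCA in the first and CCAAT in the second.
TUBB2A: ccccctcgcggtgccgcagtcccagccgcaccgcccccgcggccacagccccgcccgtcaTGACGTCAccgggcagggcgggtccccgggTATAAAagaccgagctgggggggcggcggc
TUBB4B: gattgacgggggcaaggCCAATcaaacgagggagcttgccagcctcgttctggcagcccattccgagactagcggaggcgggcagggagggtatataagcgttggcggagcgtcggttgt
In the 250 bases searched, TUBB2A held TATAAA with its first base at -30 and TGACGTCA, the palindrome bound by factors of the CREB and ATF family, at -60, and no CCAAT. TUBB4B held CCAAT at -232, -166 and -103, and neither of the other motifs as spelled. Its printed run does hold tatataa, a similar stretch that the search for exact TATAAA does not count. TATAAA occurred in 10.7% of the 35116 windows, CCAAT in 32.0% and TGACGTCA, a motif added after the sequence had been read, in 1.65%. These motifs do not overlap each other where they occur here. TATAAA and TGACGTCA were found in none of the other 8 genes with a window. CCAAT also occurred in CFL1 and ACTG1, which rose with 4SU+UVA, and in TUBA1A, TUBA1C and a window of TUBB, which fell. VIM, which fell, and TUBA1B, which did not pass, held no CCAAT.

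Vimentin fell in both groups with 4SU. VIM had 909, 745 and 825 RPKM with 4SU+UVA, 816, 835 and 988 RPKM with 4SU, 1088, 1025 and 1104 RPKM with UVA, and 1090.2, 1070.4 and 1097 RPKM in untreated cells. The libraries with 4SU spread widely, and even the highest of them, 4SU replicate 3, stayed below the lowest without 4SU. The log2 change was -0.40 for 4SU+UVA (SE 0.08, limma adjusted p = 0.000441) and -0.31 for 4SU (SE 0.08, limma adjusted p = 0.0154), both against untreated cells. The call for 4SU failed without 4SU replicate 1, 4SU replicate 2 or untreated replicate 3 (limma adjusted p = 0.0537 to 0.0758).

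Cofilin rose where 4SU and light were combined. CFL1 had 1053, 1019.7 and 1052 RPKM with 4SU+UVA, 902, 881 and 851 RPKM with 4SU, 807, 832 and 853 RPKM with UVA, and 846, 884 and 861 RPKM in untreated cells. The 4SU+UVA libraries were close together and above all others, and the other 3 groups overlapped. The log2 change of 4SU+UVA was 0.27 against untreated (SE 0.04, limma adjusted p = 0.000118), 0.25 against 4SU (SE 0.04, limma adjusted p = 0.000405) and 0.33 against UVA (SE 0.04, limma adjusted p = 2.56e-05). Against untreated cells it failed with median centring (log2 0.10, limma adjusted p = 0.0814) and with quantile normalisation (log2 0.04, limma adjusted p = 0.424). Quantile normalisation also ended the calls against 4SU (log2 -0.015, limma adjusted p = 0.769) and UVA (log2 0.06, limma adjusted p = 0.192).

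The effect of light, together with the recovery after it, in cells that carry 4SU was read from 4SU+UVA against 4SU. It touched 4 of the 10 genes, with TUBB2A, CFL1 and TUBA1B higher and TUBB4B lower (limma), where 44% of all tested genes passed, 25% higher and 19% lower. The same 4 genes had no overlap between the groups, as had 51% of all tested genes. The fall of TUBA1A, TUBA1C, TUBB and VIM was already there with 4SU alone, and their log2 values for 4SU+UVA against 4SU lay between -0.09 (VIM) and 0.05 (TUBA1A), with adjusted p = 0.359 to 0.757 (limma). The balance turned under quantile normalisation, with 1 gene higher (TUBB2A) and 5 lower, as ACTB (log2 -0.41), ACTG1 (log2 -0.23), TUBB (log2 -0.29) and VIM (log2 -0.29) passed beside TUBB4B and the rises of CFL1 and TUBA1B did not pass.

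Whether light acted differently with and without 4SU was tested as the interaction, the UVA effect in cells with 4SU minus that in cells without it. It passed for 2 of the 10 genes, TUBB2A (log2 0.54, SE 0.11, limma adjusted p = 0.00248) and CFL1 (log2 0.30, SE 0.06, limma adjusted p = 0.0026), where 24.8% of all tested genes passed, 10.7% with a positive and 14.1% with a negative value. For TUBB2A the value was 0.58 with median centring and 0.63 with quantile normalisation, and both passed. For CFL1 quantile normalisation left 0.01 (limma adjusted p = 0.93). TUBA1B missed the threshold at 0.18 (SE 0.07, limma adjusted p = 0.0802) and passed at 0.22 without 4SU+UVA replicate 3 (limma adjusted p = 0.0272). TUBB4B missed it at -0.17 (SE 0.07, limma adjusted p = 0.122) and passed at -0.22 without 4SU+UVA replicate 1 (limma adjusted p = 0.0195). Under quantile normalisation 6 genes passed, TUBB2A with a positive value and ACTB, ACTG1, TUBB, TUBB4B and VIM with negative ones, where 2936 of the 11510 tested genes passed (1288 positive and 1648 negative). For TUBB the interval of the interaction ran from -0.20 to 0.11, and for TUBA1C from -0.16 to 0.13.

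**Figure D3:**
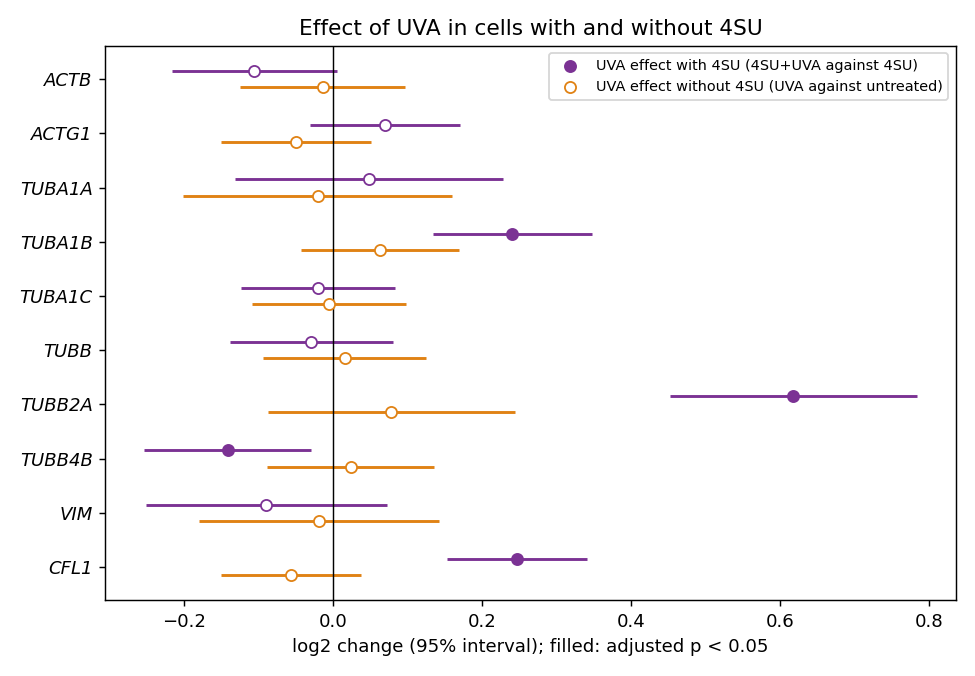
Log2 change with UVA and its 95% interval for each gene, in cells with 4SU (4SU+UVA against 4SU) and without it (UVA against untreated). Filled points passed at adjusted p under 0.05, which TUBB2A (0.62), CFL1 (0.25), TUBA1B (0.24) and TUBB4B (-0.14) did with 4SU and none without it.

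The effect of 4SU in irradiated cells, from 4SU+UVA against UVA, shares its 4SU+UVA libraries with the comparisons above. ACTG1, TUBB2A and CFL1 were higher and TUBA1A, TUBA1C, TUBB, TUBB4B and VIM lower, 8 of 10 genes, where 54.4% of all tested genes passed, 34.7% higher and 19.8% lower (limma). These 8 did not overlap between the groups, as was true of 59.4% of all tested genes. The falls ranged from -0.27 (TUBB, SE 0.05, limma adjusted p = 0.000564) to -0.38 (VIM, SE 0.08, limma adjusted p = 0.00073). TUBB2A was at 0.33 (SE 0.08, limma adjusted p = 0.00272). ACTB, at 0.01, became a fall of -0.70 under quantile normalisation (limma adjusted p = 2.27e-08), and TUBA1B, at -0.06, did not pass with the deposited scaling. TUBA1B passed as lower with median centring (log2 -0.15, limma adjusted p = 0.0359) and with quantile normalisation (log2 -0.27, limma adjusted p = 4.76e-05). The counts were 2 higher and 6 lower under the first, and 1 higher and 8 lower under the second.

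Ratios taken within a library show how these genes shifted against each other whatever the library total. The summed density of the 6 tubulin genes over that of the actins was 0.509, 0.523 and 0.510 with 4SU+UVA, 0.501, 0.491 and 0.499 with 4SU alone, 0.635, 0.661 and 0.618 with UVA alone, and 0.604, 0.620 and 0.617 in untreated cells. VIM over the actins was 0.157, 0.144 and 0.155 with 4SU+UVA, 0.150, 0.152 and 0.175 with 4SU alone, 0.219, 0.206 and 0.205 with UVA alone, and 0.211, 0.206 and 0.207 in untreated cells. In both ratios all 6 libraries with 4SU lay below all 6 without it. Averaged over light, the log2 difference with against without 4SU was -0.31 for tubulin over actin and -0.43 for VIM over actin (exact permutation test within light, 400 regroupings, p = 0.005 for each, the smallest possible, and adjusted p = 0.0125 over 5 ratios). This test was chosen after the data had been seen. The separation of the libraries already fixes its p at the smallest value, so the p adds nothing to that separation. Of the planned pairwise tests of the ratios, the lowest adjusted p was 0.147 (exact permutation test). Quantile normalisation, which reshapes the highest values, left -0.077 for tubulin over actin (exact permutation p = 0.26) and -0.20 for VIM over actin (exact permutation p = 0.02).

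The other ratios showed no such effect of 4SU averaged over light, with log2 0.09 for CFL1 over actin (exact permutation p = 0.155, adjusted p = 0.194), -0.06 for ACTB over ACTG1 (p = 0.145, adjusted p = 0.194) and 0.04 for alpha over beta tubulin (p = 0.405). CFL1 over the actins was 0.182, 0.197 and 0.198 with 4SU+UVA, 0.166, 0.160 and 0.151 with 4SU alone, 0.162, 0.168 and 0.158 with UVA alone, and 0.164, 0.170 and 0.163 in untreated cells. Here the 4SU+UVA libraries lay above all others. Alpha over beta tubulin was 0.609, 0.648 and 0.602 with 4SU+UVA, 0.539, 0.543 and 0.512 with 4SU alone, 0.569, 0.565 and 0.555 with UVA alone, and 0.547, 0.565 and 0.557 in untreated cells, so the 4SU+UVA libraries stood highest and the 4SU libraries lowest. Over the 25 pairwise tests of the 5 ratios, 17 gave p = 0.1 in the exact permutation test, the smallest possible, and the lowest adjusted p was 0.147.

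**Figure D4:**
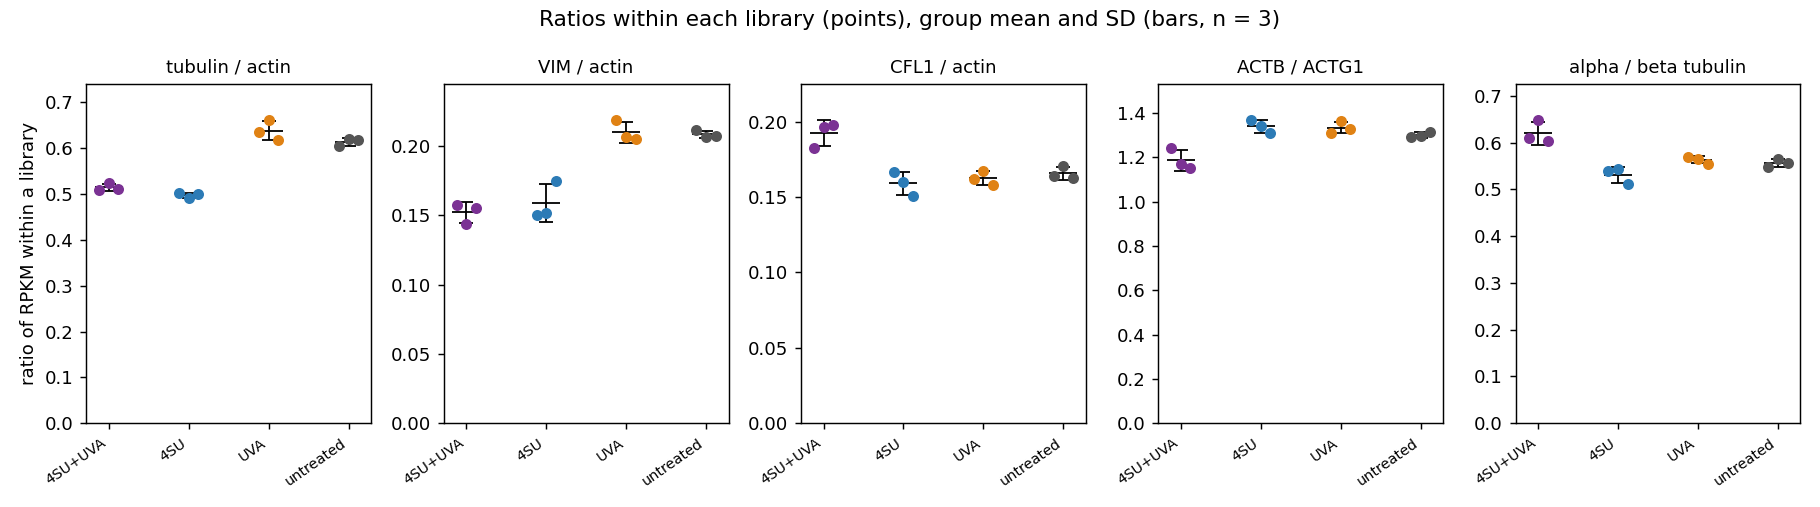
Ratios of RPKM within each library (points), with group mean and SD (bars, n = 3). Tubulin over actin and VIM over actin are lower in all 6 libraries with 4SU than in all 6 without, CFL1 over actin and alpha over beta tubulin are highest with 4SU+UVA, and ACTB over ACTG1 is lowest there.

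Likeness across the 12 libraries, given as a description since they share 4 groups, varied among the genes that fell with 4SU. Pearson's r of log2 density was 0.97 between TUBB and VIM, 0.949 between TUBA1C and TUBB and 0.935 between TUBB and TUBB4B. TUBA1B, which also fell with 4SU, stood at 0.387 with TUBB4B and 0.458 with VIM. The lowest was -0.809 between TUBB4B and CFL1. ACTB and ACTG1 stood at 0.479. As shares of reads, tubulin took 0.564 ± 0.0258% with 4SU+UVA, 0.559 ± 0.0143% with 4SU, 0.664 ± 0.0176% with UVA and 0.653 ± 0.0157% in untreated cells (SD, n = 3 each). Actin took 1.06 ± 0.0574% with 4SU+UVA, 1.07 ± 0.0234% with 4SU, 0.987 ± 0.0477% with UVA and 1.01 ± 0.0138% in untreated cells (SD, n = 3 each).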

How the data were processed

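Ribosome footprints of 12 HAP1 libraries were measured, with groups and replicate numbers taken from the sample labels. The authors deposited 1 table of RPKM values for 19580 genes. The submitters' processing notes name STAR 2.7.10a and hg38. How reads were counted, on which annotation and after which filters is not given in the sources at hand.

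Totals per library, lengths per transcript and read counts were worked out from the steps of the deposited RPKM values (tolerance 0.001 reads; 15937 genes with a value), and the genes in the table held 99.931% to 99.95% of each total. They serve only for depth, read shares and counting intervals, which do not cover PCR duplicates. No molecular identifiers are described.

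Genes were tested on log2(RPKM + 0.5) with limma 3.58.1 under R 4.3.3 (lmFit, then eBayes with its variance trend), in 1 model of 4 group means with 8 residual degrees of freedom, two-sided, with Benjamini-Hochberg adjustment over all 11510 genes of a contrast and a threshold of 0.05. Fold changes are on this scale. Within-library ratios were compared by exact two-sided permutation over 20 regroupings with scipy 1.17.1 in Python 3.11.15. The scripts were tested on simulated data. Promoter windows and positions are RefSeq's (GRCh38.p14).

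The 10 genes, the lists and the tests were chosen with earlier results of these data known, and all 10 are named. Lists of other cytoskeletal genes, cell type markers and the search for genes of similar pattern were not used here, since 0 Ensembl identifiers stand in the gene table at hand. Alternatives were the pseudocount, the filter, median centring, quantile normalisation, the variance trend, the groups in the fit, a replicate block and leaving out each library.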

Additional observations from a re-analysis of the deposited data

Results flagged for a closer look

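The effect of UVA differed between cells with and without 4SU for 2 of the 10 genes, by the test of the interaction in limma, which 24.8% of all tested genes passed, so the count itself is not above the background. For TUBB2A the UVA effect with 4SU minus that without it was 0.54 on the log2 scale (limma adjusted p = 0.00248). All 3 4SU+UVA libraries lay above all 4SU libraries, whereas UVA and untreated libraries overlapped. For CFL1 the difference was 0.30 (limma adjusted p = 0.0026), with the same arrangement of libraries, and it was 0.01 under quantile normalisation.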

How the results depend on the processing

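Of 890 alternatives for single genes, 825 kept their side of the threshold without a called change of sign. Another 39 lost and 16 gained a call, and 10 turned direction with a call in at least 1 of the fits compared. Among the 825 are 37 that changed sign and had no call in either fit. The 10 turned values were, for 4SU+UVA against untreated, ACTG1 (-0.042 with median centring, -0.14 with quantile normalisation) and TUBA1B (-0.17 with each), and, with quantile normalisation only, ACTB for UVA against untreated (0.31), ACTG1 (-0.23) and CFL1 (-0.015) for 4SU+UVA against 4SU, ACTB (-0.70) and ACTG1 (-0.34) for 4SU+UVA against UVA, and ACTG1 for the interaction (-0.44). The cause was not tested. The count of genes called for 4SU against untreated, 6, was 3 without the variance trend and 3 to 5 when 1 library was left out. Quantile normalisation gave 1 call for UVA against untreated and 6 for the interaction. With the replicate number as a block, 5 genes passed for 4SU against untreated and 3 for 4SU+UVA against 4SU (TUBB4B lost in both, limma adjusted p = 0.0685 and 0.0598), and no other call changed. The numbers share no source in the labels. Same-numbered libraries correlated at -0.0458 to 0.0679 in their deviations, and a library correlated best with its own number in 15 of 36 combinations of library and other group.

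Of 370 alternatives for the ratios, 342 moved by less than the replicate spread or kept their call, and the exceptions all came from quantile normalisation. There the log2 values for ACTB over ACTG1 were -0.25 (4SU+UVA against untreated), -0.076 (4SU against untreated), 0.11 (UVA against untreated), -0.36 (4SU+UVA against UVA), -0.28 (interaction) and -0.22 (4SU averaged over light, exact permutation p = 0.03). For alpha over beta tubulin they were 0.21 (4SU+UVA against untreated), -0.024 (UVA against untreated), 0.29 (4SU+UVA against 4SU), 0.23 (4SU+UVA against UVA) and 0.32 (interaction). For tubulin over actin they were -0.088 (4SU+UVA against untreated), -0.26 (4SU against untreated), -0.20 (UVA against untreated), 0.17 (4SU+UVA against 4SU), 0.11 (4SU+UVA against UVA, turned), 0.37 (interaction) and -0.077 (4SU averaged over light). For VIM over actin they were -0.29 (4SU+UVA against untreated), -0.21 (UVA against untreated), 0.033 (4SU+UVA against 4SU), -0.084 (4SU+UVA against UVA) and 0.24 (interaction). For CFL1 over actin they were 0.31 (4SU+UVA against untreated), -0.0012 (4SU against untreated), -0.29 (UVA against untreated), 0.60 (4SU+UVA against UVA) and 0.60 (interaction).

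Over all genes, median centring and quantile normalisation gave 3107 higher and 2888 lower, and 3011 and 2910, for 4SU+UVA against untreated, where the deposited scaling gave 4674 and 2122. For 4SU against untreated they gave 640 and 1080, and 678 and 497, against 1295 and 359. For UVA against untreated they gave 19 and 48, and 22 and 20, against 32 and 43, and the total of 75 was 45 without a filter and 27 without the variance trend. For 4SU+UVA against UVA quantile normalisation gave 2900 and 2820, against 3989 and 2278. The total of 1654 for 4SU against untreated ran from 726 (without 4SU replicate 1) to 2050 (without 4SU replicate 3). With 3 libraries a group, the 95% interval between groups reached 0.09 on the log2 scale to either side for CFL1, the narrowest of the 10 genes. That interval is not adjusted for the number of genes tested, so larger changes also went without a call. An example is TUBB2A for 4SU against untreated (log2 -0.21, limma adjusted p = 0.0781).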
